A study of Saccharomyces cerevisiae with 24 samples.

Results

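The deepest sub-nucleosomal footprints of the yeast genome outside the ribosomal DNA were examined, that is, the peaks of short MNase-resistant fragments that gathered the most reads. Peaks qualified when their reads, summed over 24 libraries, reached 960, after leaving out the rDNA array on chromosome XII and everything within 5 kb of a chromosome end. Because 116 peaks of the 57577 considered met that sum, fewer than the 200 required, the 200 highest sums were taken instead, so the members were chosen by their summed reads. They are 200 of 58467 peaks in all and ranged from 852 to 3220 summed reads, with a median of 996. The last peaks inside had 852 and 852 reads, and the first peaks outside had 851 and 850. At the sum of 960, the nearest peaks had 961 reads inside and 959 outside.

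A pair of MATa strains of the W303 background were followed through S phase. Both carry the background alleles can1-100, rad5-535, leu2-3, 112, trp1-1, his3-11, 15, ura3-1 and ade2-1, and both lack SML1, which encodes an inhibitor of ribonucleotide reductase. The SSDDCS strain (marked sml1∆::HphNT in the sample labels and sml1∆::HphMX in the study's strain list) also carries extra copies of Sld7 with Cdc45, SLD3-A with Dbf4-A, and Sld2 with Dpb11, each pair driven by a divergent GAL1-10 promoter and integrated at LEU2, HIS3 and TRP1. The control strain was sml1∆::URA3 alone. Cells grown in raffinose were held in G1 with alpha factor, received galactose for 30 min, and were released into galactose medium. Samples were taken from each culture in G1 and at 11 times between 5 and 60 min, giving 1 library per strain and time. With 1 library per group there is no replicate error, so no test was made and differences are described by fold and by the number of libraries that show them.

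Micrococcal nuclease digests DNA that no protein covers, and fragments shorter than a nucleosome mark places where a transcription factor or another small complex shielded the DNA. In budding yeast such places lie mostly in promoters, at sites of abundant general regulatory factors such as Abf1, Reb1 and Rap1 and of pathway-specific activators such as Gcn4 and Gal4. When a replication fork passes, factors and nucleosomes are displaced and have to rebind to 2 daughter copies. The SSDDCS factors are limiting for origin firing, so their overexpression brings forward the replication of much of the genome.

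The sequences below are the 101 bp windows centred on 7 of the 200 peaks, read from the plus strand of the R64 reference. They were chosen because the results below turn on them. Capitals mark the motif matches of Gcn4 (GCV3), Abf1 (MRPL8-COA3), Rap1 (TEF2 and the telomeric repeat), Gal4 with Ume6 (GAL1-GAL10), and Abf1, Ste12 and Gcn4 (ISU2-HER1). The last window has no match and is almost all A and T.
GCV3 promoter, chrI:58520-58620: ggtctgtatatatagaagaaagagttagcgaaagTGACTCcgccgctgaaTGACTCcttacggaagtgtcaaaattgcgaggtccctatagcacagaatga
MRPL8-COA3 promoter, chrX:316540-316640: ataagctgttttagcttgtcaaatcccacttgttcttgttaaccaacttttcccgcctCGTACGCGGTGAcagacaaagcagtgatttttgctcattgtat
TEF2 promoter, chrII:477184-477284: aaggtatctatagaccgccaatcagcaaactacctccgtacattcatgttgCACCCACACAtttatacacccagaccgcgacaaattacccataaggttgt
GAL1-GAL10 promoter, chrII:278540-278640: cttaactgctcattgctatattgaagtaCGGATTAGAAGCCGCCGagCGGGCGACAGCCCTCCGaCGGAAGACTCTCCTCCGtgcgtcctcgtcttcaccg
ISU2-HER1 promoter, chrXV:762209-762309: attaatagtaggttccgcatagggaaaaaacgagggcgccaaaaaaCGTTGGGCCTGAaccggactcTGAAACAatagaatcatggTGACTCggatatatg
telomeric region of XII, chrXII:11237-11337: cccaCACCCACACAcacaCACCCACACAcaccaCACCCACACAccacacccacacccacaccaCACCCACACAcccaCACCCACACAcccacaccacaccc
telomeric region of X, chrX:7031-7131: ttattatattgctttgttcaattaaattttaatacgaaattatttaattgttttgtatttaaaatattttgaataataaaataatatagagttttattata

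Library totals lay between 481930 and 518046 reads in SSDDCS and between 484807 and 536253 reads in the control. The rDNA array took 26.6% to 37.5% of the reads of an SSDDCS library and 27.7% to 37.7% of those of a control library. Reads were scaled to the library total over all peaks, and "scaled reads" below means reads at the mean library size. A member averaged between 35.5 and 134 reads per library, with a median of 41.5. The 95% Poisson interval of a count of 36 runs from 25.2 to 49.8, so a single library fixes a member's level only to within about this range, by counting alone. Of the 200 members, 171 would also be among the 200 deepest by SSDDCS reads alone and 179 by control reads alone.

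The deepest peaks fell into single promoters and repeated sequence. Promoters, meaning intergenic positions within 1000 bp upstream of a protein-coding start, held 129 of the 200. Telomeric regions, as annotated in the reference and beyond 5 kb from the ends, held 41. The rest lay in gene bodies (9), the CUP1 metallothionein array (6), other intergenic DNA (5), FLO genes of the flocculin family (4), Ty elements or their LTRs (3), annotated replication origins (2) and a tRNA gene (1). Among the next 200 peaks by depth, promoters held 161 and telomeric regions 2. Among the 7547 other high-confidence peaks, promoters held 54.4%, gene bodies 25.3% and telomeric regions 1.35%. No member lay at a centromere.

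The 101 bp window had no second match in the reference genome for 144 members and had copies elsewhere for 56. Of the 41 telomeric members, 40 had copies, with a median of 16 matches and a largest number of 43. The telomeric members came from 12 chromosomes, and 35 of them had 10 or more matches. A further 5 members with copies lay in the CUP1 array, 4 in FLO genes, 3 in Ty elements and 3 in promoters. How many copies these strains carry was not measured here, so the depth of such a window and the number of its copies cannot be told apart.

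Single-copy members were promoter peaks in 126 of 144 cases. Their distance to the nearest start codon had a median of 229 bp, with quartiles of 148 and 350 bp. A divergent partner gene also started within 1000 bp for 59 of the 126, or 46.8%, against 36.2% of other high-confidence promoter peaks. The window had a median GC content of 44.6% in the members, the same as in the next 200, against 41.6% in other high-confidence peaks and 40.6% in all peaks. Members lay at 172 separate loci when peaks within 300 bp were joined, 150 of them with 1 member.

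Motifs were searched on both strands within 25 bp of each peak position, and a window could count for several motifs. The Abf1 motif, TCA and ACG 6 bases apart, lay at 34 of the 200 members, or 17.0%. It lay at 10.0% of the next 200 peaks, 5.00% of other high-confidence peaks and 2.11% of all peaks. The Rap1 motif, CACCC followed by ACA after 2 bases, lay at 10 members, or 5.00%, against 1.5% of the next 200, 0.543% of other high-confidence peaks and 0.174% of all peaks. Abf1 and Rap1 are general regulatory factors of promoters and silencers, and Rap1 also binds telomeric repeats.

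Pairs of CGG and CCG with at most 15 bases between them, the arrangement that binuclear zinc cluster factors read, lay at 39 members. This was 19.5%, against 18.5% of the next 200, 10.3% of other high-confidence peaks and 3.89% of all peaks. The motif was added after the windows had been seen. Gal4 sites, CGG and CCG 11 bases apart, are among them. The SCB element CGCGAAA, bound by the G1/S factor SBF, lay at 7 members (3.50%), against 1.5% of the next 200, 1.46% of other high-confidence peaks and 0.416% of all peaks. The Ume6 motif GGCGGC, bound by a repressor of meiotic genes, lay at 9 members (4.50%), against 2.5% of the next 200, 2.52% of other high-confidence peaks and 1.23% of all peaks. TTACCCG, the Reb1 motif, lay at 6 members (3.00%) against 6.0% of the next 200, 2.73% of other high-confidence peaks and 0.558% of all peaks. The stress element AGGGG of Msn2/4 lay at 11 members, or 5.50%, against 6.50% of the next 200, 5.72% of other high-confidence peaks and 3.78% of all peaks. Runs of 8 A or 8 T lay at 1 member, or 0.500%, against 3.00% of the next 200, 4.89% of other high-confidence peaks and 1.58% of all peaks. The other 9 motifs searched lay at 0 to 3 members each.

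**Figure D1:**
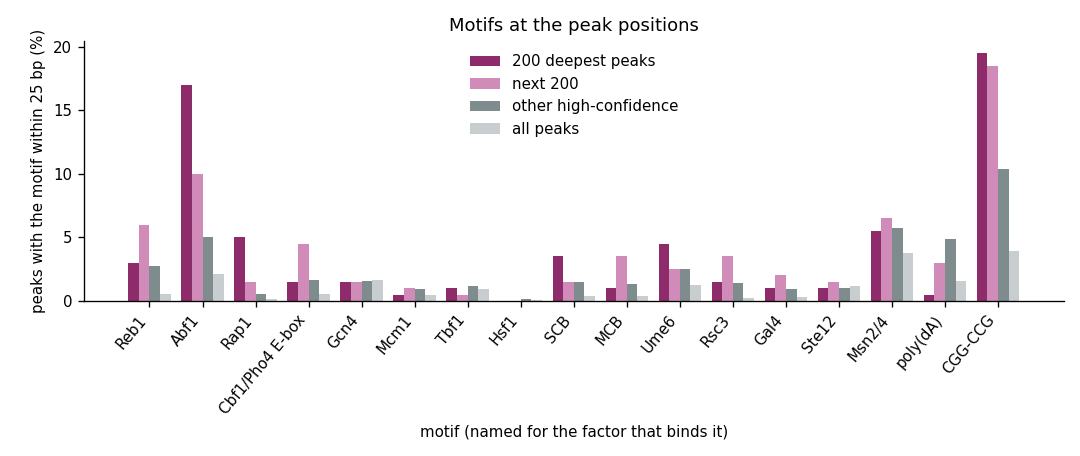
Percent of peaks with each motif within 25 bp of the peak position, in the 200 deepest peaks, the next 200, the other high-confidence peaks and all peaks. The Abf1 bars step down from 17.0% in the deepest peaks to 2.11% in all peaks, while the CGG-CCG bars of the deepest and next 200 peaks are close, at 19.5% and 18.5%.

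The deepest member of all lay at XII 5686 in a telomeric region, with 3220 summed reads. It had 123 to 166 scaled reads in SSDDCS with a median of 133, against 112 to 149 with a median of 128 in the control. Another 4 of the 10 deepest were telomeric, on XII, XIII and VII. Of the others, 3 lay in the CUP1 array, at VIII 214901, 212901 and 214251 with 2919, 2574 and 2440 reads. CUP1 encodes a copper-binding metallothionein and is tandemly repeated. FLO1, a cell wall lectin with internal tandem repeats, held the third deepest peak at I 206474 with 2631 reads.

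The GCV3 promoter held the deepest peak in single-copy sequence outside the CUP1 array, at I 58570, 108 bp upstream of the start codon. GCV3 encodes the H subunit of the glycine cleavage system, and the window holds the Gcn4 motif TGACTC at 2 places. That motif lay at 3 members (1.5%), against 1.5% of the next 200, 1.58% of other high-confidence peaks and 1.68% of all peaks. The peak had 51.7 to 123 scaled reads in SSDDCS with a median of 83.3, against 80.1 to 181 with a median of 114 in the control. In both strains the lowest value came at 20 min.

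Other deep single-copy members stood upstream of genes of several kinds. PFK27 (6-phosphofructo-2-kinase) had 1745 summed reads at XV 69292, in a window with both a Rap1 motif and an E-box. The E-box CACGTG, read by Cbf1 and Pho4, lay at 3 members (1.5%), against 4.50% of the next 200, 1.64% of other high-confidence peaks and 0.580% of all peaks. MRPL8-COA3 (mitochondrial ribosome and cytochrome oxidase assembly) had 1367, and POB3 (a subunit of the FACT histone chaperone) had 1344. TEF2 and TEF1, the paralogous genes for translation elongation factor EF-1 alpha, had 1319 and 1261. A member inside the short reading frame YJL028W, at X 391555, had 1458 reads. It lay 702 bp upstream of VPS53 and 849 bp upstream of RNR2, a subunit gene of ribonucleotide reductase.

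The courses were asked next, where each strain's reads at 20 to 35 min were set against its own G1 library. The 200 members together took 2.15% of the SSDDCS reads in G1, 1.57% at the lowest (30 min) and 2.004% at 60 min. In the control they took 2.15% in G1, 1.63% at the lowest (25 min) and 2.18% at 60 min. The mean over 20 to 35 min was 75.1% of the G1 share in SSDDCS and 79.4% in the control. Each of these rests on 1 G1 library. At 5 min the share was 1.97% in SSDDCS and 2.30% in the control, so the order of the strains depends on the base. The shares of single-copy members given next have the same limit. The 95% Wilson intervals of these shares, which cover counting error only, are drawn with the plot of shares by time.

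Single-copy members carried most of this dip. Their share stood at 69.1% of G1 in SSDDCS and 73.1% in the control over 20 to 35 min, while the share of repeated members stood at 87.0% in SSDDCS and 93.2% in the control. At 60 min the repeated members were above their G1 share in both strains, at 0.750% against 0.716% in G1 for SSDDCS and 0.807% against 0.673% in G1 for the control. The lowest of a member's 12 libraries fell between 20 and 35 min for 108 of the 144 single-copy members in SSDDCS and for 91 in the control. That window holds 4 of the 12 libraries, and the count was not made over other peaks, so it is not a trait of the members. The next 200 peaks stood at 73.0% of G1 in SSDDCS and 74.1% in the control, and other high-confidence peaks at 85.5% in SSDDCS and 85.0% in the control. The share of low-confidence peaks stood at 131% of G1 in SSDDCS and 121% in the control over the same times. Copy number per cell and occupancy per copy cannot be told apart in these reads.

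**Figure D2:**
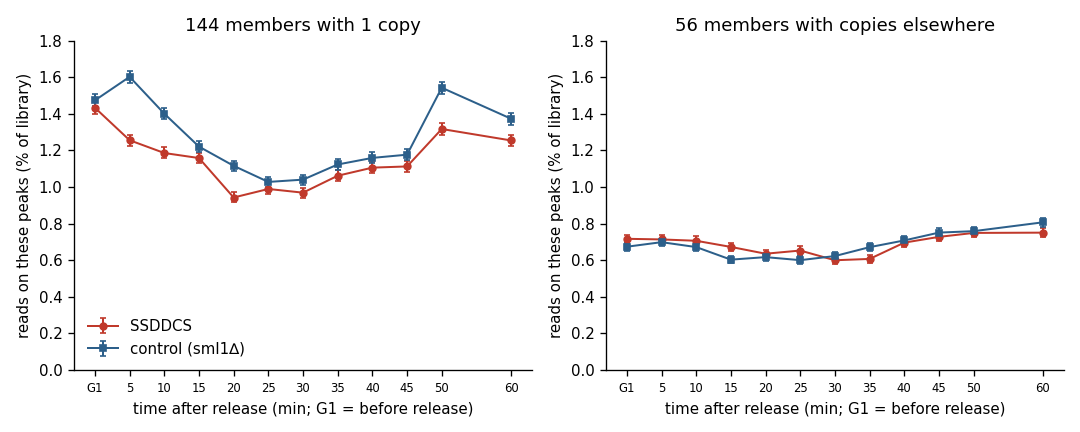
Percent of each library's reads on the 144 single-copy members (left) and on the 56 members with copies elsewhere (right) against time, for SSDDCS and the control, with 95% Wilson intervals for counting error. The single-copy share is lowest at 20 min in SSDDCS (0.942%) and at 25 min in the control (1.03%), and the control reaches 1.60% at 5 min, where SSDDCS is at 1.26%.

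Member by member, 75 of 200 fell by 1.5-fold or more between G1 and 20 to 35 min in SSDDCS, and 6 rose as much. Over all 7747 high-confidence peaks considered, 21.8% fell and 14.2% rose in SSDDCS. In the control 57 members fell and 8 rose, where 21.9% of the high-confidence peaks fell and 12.3% rose. Both strains shared 40 of the falls, SSDDCS alone had 35 and the control alone had 17. In the next 200 peaks these counts were 33, 39 and 24, close to those of the members. In the 7547 other high-confidence peaks they were 736, 877 and 906. The order of the strains turned round when the mean of G1 and 5 min was the base, with 44 falls in SSDDCS and 79 in the control, so neither strain can be said to have more. The median log2 change of single-copy members was -0.53 in SSDDCS and -0.43 in the control, where other high-confidence peaks had -0.14 in SSDDCS and -0.15 in the control. It was -0.22 in SSDDCS and -0.09 in the control for repeated members.

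These counts moved with the scaling. Dividing by the reads outside the rDNA shifted the median of all high-confidence peaks from -0.15 to -0.31 in SSDDCS and from -0.16 to -0.24 in the control, and gave 108 falls with 2 rises in SSDDCS and 76 with 6 in the control. A median-of-ratios scaling over high-confidence peaks, chosen after the data had been seen, shifted that median to 0.03 in SSDDCS and 0.02 in the control, and gave 37 falls with 12 rises in SSDDCS and 28 with 12 in the control. The median of single-copy members was below 0 under each of these scalings, from -0.35 to -0.70 in SSDDCS and from -0.24 to -0.52 in the control. Set against the low-confidence peaks within 5 kb of each member, which share its position on the chromosome, it was -0.89 in SSDDCS and -0.69 in the control.

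GAT1, which encodes a GATA activator of nitrogen-repressed genes, had one of the steepest falls. Its peak at VI 95986 lies just inside the start of the reading frame. SSDDCS had 91.4 scaled reads in G1 and 30.4 at the lowest, against 87.0 in G1 and 29.7 at the lowest in the control. The log2 change over 20 to 35 min was -1.44 in SSDDCS and -1.26 in the control, with all 4 libraries below G1 in each strain. The fall was under way by 10 min in both strains, at 51.2 scaled reads in SSDDCS and 54.1 in the control.

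The remaining steepest falls shared by both strains lay at DNF3, ALT2, an intergenic peak at XII 20988 and the telomeric peak at X 7081. DNF3, an aminophospholipid translocase, changed by -1.55 in SSDDCS and by -0.88 in the control. ALT2, an alanine transaminase paralogue, changed by -1.45 in SSDDCS and -0.96 in the control. The peak at XII 20988 changed by -1.16 in SSDDCS and -1.17 in the control.

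The telomeric peak at X 7081 changed by -1.32 in SSDDCS and -1.28 in the control. Its window, printed above, has 10.9% G and C. The related window at IX 7082 has the same content and changed by -1.12 in SSDDCS and -1.11 in the control. Each window had 2 matches in the reference, so reads of both sites may be shared between them.

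The FUS2 and RCN2-STE13 promoters were picked out after their values had been seen. FUS2, needed for cell fusion in mating, had 50.1 scaled reads in G1 and 24.3 at the lowest in SSDDCS, against 48.3 in G1 and 24.7 at the lowest in the control. Its log2 change was -0.81 in SSDDCS and -0.68 in the control. The RCN2-STE13 promoter, where STE13 encodes a protease that matures alpha factor, changed by -1.42 in SSDDCS and -0.77 in the control.

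Rises were fewer and lay mainly in repeats. All 4 FLO members were above G1, with a median log2 change of 0.65 in SSDDCS and 0.84 in the control, and 2 of them passed 1.5-fold in SSDDCS and 3 in the control. The deepest FLO1 peak had 76.6 scaled reads in G1 and 150 at the highest in SSDDCS, against 62.4 in G1 and 139 at the highest in the control. The second FLO1 peak, at I 205774, rose by 0.88 in each strain, and the FLO9 peak at I 25597 stood at 0.52 in each, short of 1.5-fold. These windows had 12 matches each. The rises in SSDDCS depended on the scaling: set against the low-confidence peaks within 5 kb, the FLO1 peaks stood at 0.31 and 0.40 in SSDDCS, short of 1.5-fold, and at 0.70 and 0.69 in the control, while the FLO9 peak stood at -0.18 in SSDDCS and 0.13 in the control. The telomeric repeat window at XII 11287 stood at 0.49 in SSDDCS and 0.59 in the control, and at -0.05 in SSDDCS and 0.11 in the control under that scaling. It had 43 matches, the most of any member.

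The 6 CUP1 members divided by position. The 2 peaks upstream of CUP1-1 and CUP1-2, at 181 and 183 bp from the starts, were below G1 at 20 to 35 min, with log2 changes of -0.35 and -0.50 in SSDDCS and -0.36 and -0.54 in the control. The windows of these 2 peaks had 2 matches each in the reference, so reads of both sites may be shared between them. The peak at VIII 214251 stood at -0.21 in SSDDCS and -0.61 in the control. The other 3 members, at VIII 212350, 213901 and 214601, were above G1, at 0.31, 0.60 and 0.63 in SSDDCS and at 0.73, 0.23 and 0.27 in the control. Their G1 levels were lower than those of the promoter peaks, between 27.5 and 28.5 scaled reads in SSDDCS and between 24.6 and 29.3 in the control. The values of 0.60 and 0.63 in SSDDCS passed 1.5-fold, but 0 members did in SSDDCS when set against the low-confidence peaks within 5 kb.

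The deepest members of further classes and motifs given here were also below G1 in both strains. PMP3 (IV 1014036), the deepest member of another motif, stood at -0.70 in SSDDCS and 0.07 in the control. The Ty1 member at XV 118050 fell by 0.67 on the log2 scale in SSDDCS and stood at -0.47 in the control, with 32 matches in the reference. The origin member at XI 642883 changed by -0.75 in SSDDCS and -0.96 in the control, while that at XI 462890 stood at -0.72 in SSDDCS and -0.14 in the control. The tRNA gene member at V 355079 stood at -0.40 in SSDDCS and -0.52 in the control. PSF3, a subunit of the GINS replication complex, has the MCB element ACGCGT of S phase genes in its window at XV 48788 and changed by -0.69 in SSDDCS and -0.87 in the control. That element lay at 2 members (1.0%), against 3.50% of the next 200, 1.33% of other high-confidence peaks and 0.421% of all peaks. NDI1, a mitochondrial NADH dehydrogenase with the deepest Reb1 window, stood at -0.53 in SSDDCS and -0.57 in the control.

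CCW12, which encodes an abundant cell wall mannoprotein, was the only single-copy member to rise 1.5-fold in the control. Its peak at XII 370241 had 13.2 scaled reads in the G1 control library and 31.5 to 51.4 in the 11 later ones, a log2 change of 1.51. With the mean of G1 and 5 min as the base the change was 0.61, so its size rests on the G1 library. SSDDCS had 21.6 scaled reads in G1 and 14.2 to 47.2 later, a change of 0.57 that did not reach 1.5-fold. The low value of 14.2 came at 30 min, and the other 3 SSDDCS libraries of 20 to 35 min were above G1. In SSDDCS the only single-copy member to rise 1.5-fold was the peak at XV 678995 near RPS30B, a ribosomal protein gene, at 0.61, against -0.08 in the control. This call depended on the scaling. With reads outside the rDNA as the total, or set against low-confidence peaks within 5 kb, 0 single-copy members rose 1.5-fold in SSDDCS. Median-of-ratios scaling gave 4.

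**Figure D3:**
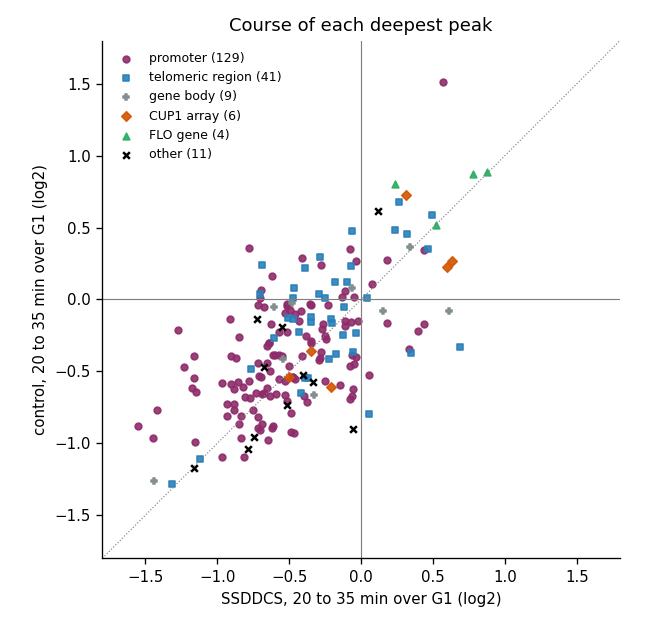
Log2 change of each of the 200 members from G1 to the mean of 20 to 35 min, in SSDDCS (horizontal) and the control (vertical), marked by annotation class, with the line of equal change dotted. Most promoters lie below 0 on both axes, the 4 FLO members lie above 0 on both, and the highest point is CCW12 at 0.57 in SSDDCS and 1.51 in the control.

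Courses of single-copy members were also set out by motif group, and some of these groups are given here. The 27 members with an Abf1 motif had a median change of -0.62 in SSDDCS and -0.50 in the control, and 15 of them fell by 1.5-fold in SSDDCS and 11 in the control. The 6 with a Rap1 motif had a median of -0.31 in SSDDCS and -0.01 in the control, with 1 fall in SSDDCS and 0 in the control. The 54 with none of the searched motifs had a median of -0.52 in SSDDCS and -0.43 in the control. Of these, 22 fell in SSDDCS and 15 in the control. Over all 144 single-copy members, 66 fell in SSDDCS and 50 in the control. The 10 with an Msn2/4 motif had a median of -0.84 in SSDDCS and -0.38 in the control. The 6 with a Reb1 motif had a median of -0.57 in SSDDCS and -0.66 in the control. TEF2, whose window has a Rap1 match, stood at -0.13 in SSDDCS and 0.02 in the control. TEF1, whose window has none, stood at -0.12 in SSDDCS and -0.19 in the control. With 6 members in the Rap1 group and no replicate libraries, these are descriptions only.

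**Figure D4:**
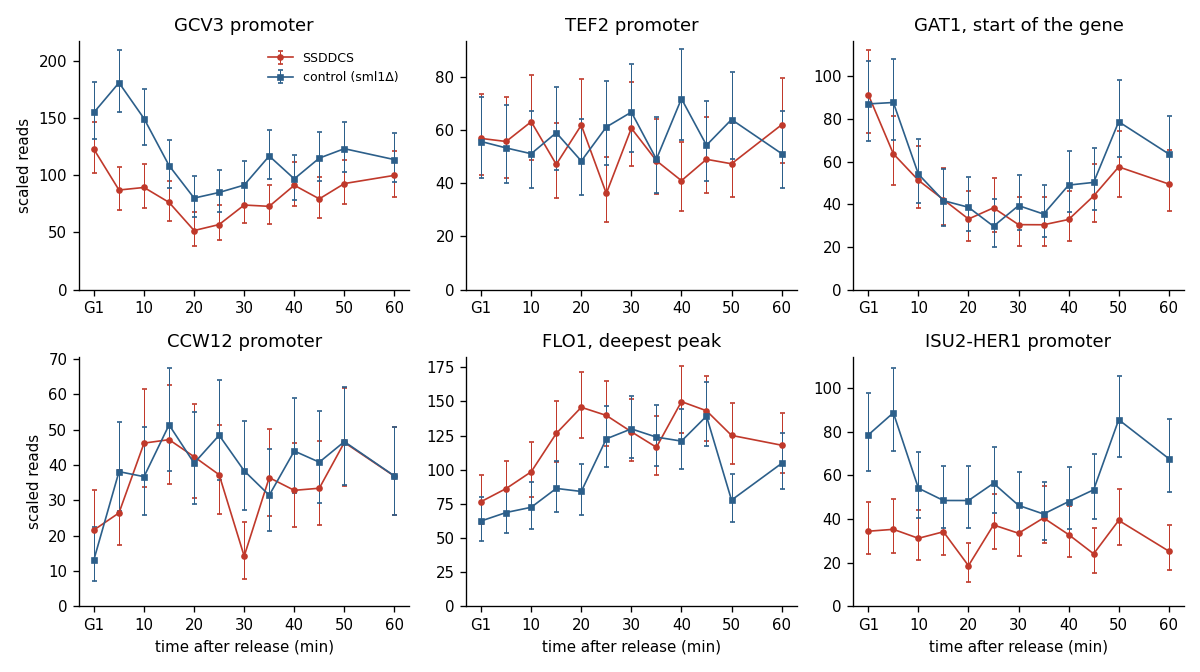
Scaled reads of 6 members against time in SSDDCS and the control, with 95% Poisson intervals for counting error. GCV3 and GAT1 dip after release in both strains, TEF2 stays between 36.2 and 72.0, CCW12 and FLO1 are lowest in G1 in the control, and ISU2-HER1 is lower in SSDDCS at every time.

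The strains were then set against each other at each time. A ratio of 2-fold or more at 1 or more times after G1 was reached by 39 of the 200 members, or 19.5%. It was reached by 29.5% of the next 200 and by 64.8% of all high-confidence peaks. Shallower peaks pass a fold more often by counting error alone. The sets differ in depth by choice, so the lower share is no result about the members. Of the 39, 29 reached it at 1 time only, 10 at 2 or more and 2 at 6 or more. Between 2 and 20 members passed 2-fold at any one time, with a median of 6. The mean squared difference between the strains on the square root scale, which is 1 where counting alone separates libraries, had a median over times of 2.10 in the members, against 1.60 in the next 200 and 1.22 in other high-confidence peaks. Above 1 this measure grows with depth for the same fold, and the sets differ in depth by choice, so its order across them is no result about the members. It was 1.74 in the members in G1, before release.

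The time with most calls was 5 min, where 14 members were 2-fold lower in SSDDCS and 6 higher. Over all high-confidence peaks 7.60% were lower and 6.49% higher at that time. The 14 were all single-copy members, and the median log2 ratio of the 144 single-copy members at 5 min was -0.40, with 107 of them below 0. That of the 56 repeated members was 0.06. Of the next 200 peaks, 15 were 2-fold lower and 3 higher at 5 min, with a median of -0.28 and 136 below 0. Other high-confidence peaks had a median of -0.08, with 4024 of 7547 below 0. The 14 lower members are close to the share over all high-confidence peaks, so they are no result about the members. The control library of 5 min held the largest share of reads on single-copy members of any library, and the ratio of 5 min rests on it and on 1 SSDDCS library. Without the 5 min libraries 27 members passed 2-fold.

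Summed over the 11 times after G1, the ratio had a median of -0.20 in single-copy members and -0.05 in repeated members, with 117 of 144 and 32 of 56 below 0. The next 200 peaks had a median of -0.10, with 135 below 0. Other high-confidence peaks had a median of -0.03, with 4163 of 7547 below 0. In all, 3 members were 1.5-fold or more higher in SSDDCS and 1 was lower. Of all high-confidence peaks 1.27% were higher and 0.800% lower.

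The 3 higher members all lay in or beside sequence that the SSDDCS constructs carry. Both peaks of the GAL1-GAL10 promoter, which drives the galactose-metabolising genes in opposite directions, were higher in SSDDCS in every library, G1 included. The peak at II 278740 had 38.2 to 90.5 scaled reads in SSDDCS with a median of 72.9, against 9.0 to 26.2 with a median of 16.1 in the control. The groups did not overlap, and the summed ratio was 3.68-fold (log2 1.88, SD over times 0.47).

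The peak at II 278590, which covers 3 Gal4 sites printed above, had 45.5 to 68.8 scaled reads in SSDDCS with a median of 63.2. The control had 11.0 to 22.2 with a median of 19.7, and the ratio was 3.25-fold (log2 1.70, SD 0.41). Extra promoter copies in SSDDCS and occupancy per copy cannot be told apart. The Gal4 motif lay within 25 bp of 2 members (1.00%), against 2.0% of the next 200, 0.941% of other high-confidence peaks and 0.330% of all peaks. The other member was LEU1, an enzyme of leucine synthesis, at -0.34.

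The third, at XV 722753, lies between HIS3 and DED1, 158 bp upstream of the start of DED1, an RNA helicase gene. It had 31.0 to 70.5 scaled reads in SSDDCS with a median of 45.2, against 16.7 to 38.1 with a median of 26.4 in the control, so the ranges overlapped. Its ratio was above 0 at 11 of 11 times and 1.88-fold when summed (log2 0.91, SD 0.42). Because the SLD3-A and Dbf4-A construct sits at HIS3, a second copy of this window in SSDDCS was not tested for.

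ISU2-HER1 was the only member 1.5-fold lower in SSDDCS. ISU2 encodes a scaffold for iron-sulfur clusters. At XV 762259 SSDDCS had 18.6 to 40.5 scaled reads with a median of 33.8, against 42.3 to 88.7 with a median of 53.7 in the control, and the ranges did not overlap. The summed log2 ratio was -0.86 (SD 0.44), below 0 at 11 of 11 times, and it was already -1.17 in G1. SSDDCS reads made up 34.8% of the reads after G1 (exact 95% binomial interval 31.8% to 37.9%, counting error only), where equal occupancy would give 49.2%. Over 20 to 35 min the log2 change from G1 was -0.08 in SSDDCS and -0.69 in the control. Its window holds Abf1, Gcn4 and Ste12 motifs. TGAAACA, the Ste12 motif of pheromone-responsive genes, lay at 2 members (1.00%), against 1.5% of the next 200, 0.994% of other high-confidence peaks and 1.15% of all peaks.

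In all, 62 members kept 1 direction at 9 or more of 11 times, and 4 of them, those above, reached 1.5-fold. The same count was not made over other high-confidence peaks. Since 149 of the 200 members had a summed ratio below 0, the 62 is no result about the members. The largest ratios among the other members that kept 1 direction were the following. Lower in SSDDCS were DNF3 (log2 -0.56, SD 0.49), TSC3 of sphingolipid synthesis (-0.54, SD 0.43), GCV3 (-0.53, SD 0.27) and STB3, a ribosomal RNA processing element binder (-0.53, SD 0.35). GCV3 was lower at 11 of 11 times and at -0.33 in G1. In G1, DNF3 stood at 0.15, TSC3 at -0.54 and STB3 at 0.25. Higher in SSDDCS were the telomeric peaks at IX 7082 (0.53, SD 0.37), VIII 556913 (0.49, SD 0.47) and X 7081 (0.43, SD 0.44). So were the SGA1-XBP1 promoter (0.37, SD 0.53) and the second FLO1 peak (0.37, SD 0.31). All were already higher in G1, at 0.47, 0.55, 0.22, 0.23 and 0.57 in that order. The window at VIII 556913 had 30 matches in the reference. XBP1 encodes a stress-induced repressor.

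**Figure D5:**
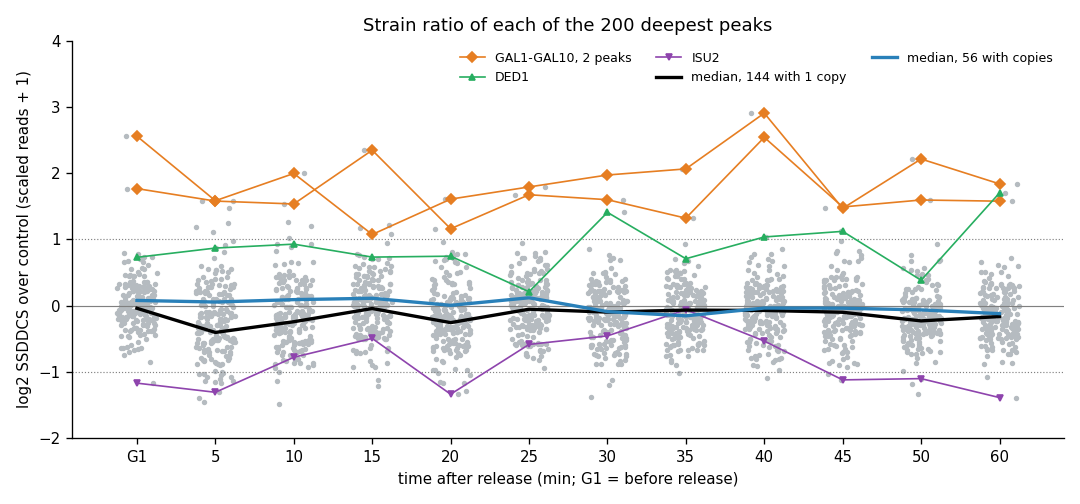
Log2 ratio of SSDDCS over control (scaled reads plus 1) for each of the 200 members at each time, with the medians of single-copy and repeated members, the 2 GAL1-GAL10 peaks, DED1 and ISU2 drawn as lines, and 2-fold marked by dotted lines. The GAL1-GAL10 lines stay above 1 throughout, ISU2 is below 0 throughout, and the single-copy median is lowest at 5 min (-0.40).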

How the data were processed

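MNase-digested chromatin was sequenced in 24 libraries (2 strains, 12 times). Per the study's methods, the authors mapped reads to R64 with Bowtie2 2.2.6 and SAMtools 0.1.19 (versions per the submitters' processing notes), kept fragments under 100 bp, sampled equal numbers of reads per fragment size, merged all samples to call peaks and deposited whole read counts per peak. This sampling hides differences in digestion that alter fragment length. The deposited peak position is the other column used, in base pairs, and whether it starts at 0 or 1 is not given in the sources used here, nor is the treatment of reads with several best matches. No column of values lacked a sample (0 columns).

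Counts were scaled to the library total over all peaks (Python 3.11.15, numpy 2.4.6, pandas 2.3.3, scipy 1.17.1). Ratios and changes are log2 with a pseudocount of 1, which understates those of shallow peaks. High-confidence peaks had log2 values summing to over 75. Copies were matches of at least 90% identity over 80% of the window (blastn 2.17.0). Gene positions and sequences came from RefSeq R64. No test across peaks was run, since groups have 1 library. Statistics were tested on simulated data.

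Named members were the 10 deepest, up to 5 each way for the summed ratio (same sign at 9 or more times) and for the course (same sign in both strains), those within 1000 bp of an altered locus, and the deepest of each class and motif. Some further members were named after their values had been seen. The members, lists and rules were chosen with earlier results of these data known. Telomeric, CUP1 and FLO classes and the CGG-CCG motif were added after the data had been seen. Alternatives covered scaling, fold, pseudocount, read sum, base, windows and left-out times.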

Additional observations from a re-analysis of the deposited data

Results flagged for a closer look

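In 9 members all 4 libraries of 20 to 35 min lay on one side of G1 in SSDDCS and on the other side in the control. The difference was not tested, and 407 of the 7747 high-confidence peaks did the same. That is a similar share, so the 9 are no result about the members. The values below are the log2 change in SSDDCS minus that in the control.

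SSDDCS was the lower of the strains in 5 members. YLR108C-AHP1 (XII 368341, AHP1 encodes a peroxiredoxin) differed by -1.14, with -0.78 in SSDDCS and 0.36 in the control. RPL41A (IV 130793) differed by -0.78, PMP3 (IV 1014036) by -0.76, and the telomeric peaks at II 5630 and XII 1071748 by -0.61 and -0.58.

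SSDDCS was the higher of the strains in 4 members. The telomeric peaks at IX 7532 and V 6331 differed by 1.02 and 0.72, the FMP45 promoter (IV 62236) by 0.68 and MAM3-GPD2 (XV 216467) by 0.61. Of the 41 telomeric members 40 had copies, so reads of such peaks may be shared between sites.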

How the results depend on the processing

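No paired analysis was possible because each strain and time has 1 library, so no replicate numbers pair samples, and the matching of strains by time is already in the ratios. At 1200 summed reads or more, which leaves fewer members, the counts were 2 members past 2-fold at any time, 0 summed higher, 0 summed lower, 13 falls and 2 rises in SSDDCS, 8 falls and 3 rises in the control, 13 promoters and 12 Abf1 motifs. The log2 change of the members' share was then -0.32 in SSDDCS and -0.24 in the control, against -0.41 in SSDDCS and -0.33 in the control with all members. With reads outside the rDNA as the total it was -0.59 in SSDDCS and -0.42 in the control, the rises in SSDDCS were 2, and 3 members were summed lower.

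At 1.5-fold 162 members passed at some time, and with a pseudocount of 10, 12 did. No member was summed 2-fold lower (0), and leaving out altered loci left 0 summed higher. Scaling to low-confidence peaks within 5 kb gave 146 falls and 0 rises in SSDDCS and 114 falls and 5 rises in the control. Median-of-ratios scaling gave 37 falls and 12 rises in SSDDCS and 28 falls in the control. With G1 and 5 min as the base, SSDDCS had 44 falls and the control 79, which turns the order of the strains round. Only 1-copy members gave 1 rise in SSDDCS and 1 in the control. Leaving out each of the 4 times of 20 to 35 min in turn gave 70 to 82 falls in SSDDCS and 48 to 65 in the control. Alternatives were run member by member only for the 42 named members, and among those no value past 1.5-fold changed sign. Set against low-confidence peaks within 5 kb, 33 of their course values moved past the counting interval and 51 did not. Median-of-ratios scaling was run member by member on their summed ratios and not on their courses. Depth limits single libraries: a count of 42 has a 95% interval of 30.3 to 56.8.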
